A study of Mus musculus with 2 samples.

Results

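The 34 genes described here encode the carriers and enzymes of glycolysis, the proteins that sense oxygen, and well-known targets of the hypoxia response. They were chosen by name from the 32245 gene columns of the data, with earlier results of these data known. All 34 were listed for both genotypes. By role they fell into 4 carriers of glucose and lactate, 9 genes of upper glycolysis (the steps that use ATP) including its regulator Pfkfb3, 6 of lower glycolysis (the steps from the triose phosphates on, which yield it), 3 that decide the fate of pyruvate, 4 of oxygen sensing and 8 other hypoxia targets. Single cells came from the knee joints of female mice aged 1 month. The control library held Stat3fl/fl mice, and the mutant library held Acan-Cre+/Cre;Stat3fl/fl mice, so both genotypes carried the floxed Stat3 alleles. In the mutants, Cre was driven from the chondrocyte-specific Acan promoter and, per the study's methods, became active after tamoxifen given shortly after birth. Each library was a pool of 2 to 3 mice, sorted for live cells without CD31, Ter119 or CD45. With 1 library per genotype, no test between genotypes was possible. Values are CPM, the estimated UMIs of a gene per 1000000 UMIs (unique molecular identifiers, or captured mRNA molecules), summed over the cells of a class.

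Glycolysis splits glucose into pyruvate without oxygen, and cells that make lactate from that pyruvate regenerate the cofactor that keeps the pathway running. Where oxygen is scarce, the prolyl hydroxylases no longer mark the HIF alpha subunits for destruction, and HIF binds short elements beside its target genes and raises their transcription. Cartilage has no blood vessels, and chondrocytes are known to rely on glycolysis and on Hif1a to live in tissue with little oxygen.

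The chondrocytes were the cells the study had marked, which are positive for Sox9 and Col2a1 and carry no globin value. There were 501 and 332 in the control and mutant libraries, of 4903 and 1340 cells. Unmarked cells joined a class when at least 3 markers of that class were above 0 and more than of any other. This gave 417 and 189 fibroblast-like, 259 and 41 tendon-like, 169 and 100 osteoblast-like, and 146 and 113 marrow-stromal-like cells in the control and mutant libraries. The summed level of 10 chondrocyte markers other than Sox9 and Col2a1 was 31372 and 22262 CPM in marked cells and at most 1720 CPM in any gate. Osteoblast markers were also read in marked cells, at 1487 and 4905 CPM in the control and mutant libraries. The chondrocyte sums held 3068822 and 3062808 UMIs, the smallest sum was that of the mutant tendon cells with 241456, and median depth per cell ran from 2794 to 8595 UMIs. A globin value was present in 50.3 to 68.3% of the control cells of the 4 gates but in 1.1 to 7.1% of the mutant ones, and 14.2% of control and 36.7% of mutant cells exceeded 5% mitochondrial counts. By class, the control and mutant shares past that limit were 4.0 and 20.2% in chondrocytes and 6.2 and 6.9% in fibroblasts. They were 11.2 and 39.0% in tendon cells, 18.3 and 44.0% in osteoblasts and 4.1 and 38.9% in marrow stromal cells. The libraries shared 2 cell barcodes. Stat3 itself was read at 142 CPM in control and 103 CPM in mutant chondrocytes, a log2 ratio of -0.45 with a 95% counting interval of -0.67 to -0.25. Reads of the 3′ end cannot show a deleted exon, so this value does not check the deletion.

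The promoters of several members held the core letters of the hypoxia response element. RefSeq promoters on GRCm38.p6, from 250 bases before to 50 bases after the start site, were matched to 31 of the 34 members, all but Slc2a3, Epas1 and Ndrg1. Both strands were searched for ACGTG and GCGTG, and a CACGTG holds ACGTG on both strands and counts as 2 matches. A match was present in 25 of 31 members (80.6%), against 43.8% of 27025 promoters. ACGTG was held by 61.3% of members and 19.7% of all promoters, and GCGTG by 54.8% and 32.5%. Members also had a higher GC content, with a median of 65% against 52.7%, and the part of base composition in these shares was not tested. No match stood in the windows of Hk1, Gpi1, Aldoa, Tpi1, Pkm or Vegfa. The 250 bases before the start site are shown for 5 members whose levels set chondrocytes apart in the results that follow, from the upper pathway, the lower pathway, glucose uptake, lactate formation and mitochondrial turnover. Capitals mark the matches, and CACGT and CACGC are the same motifs read from the opposite strand.
Slc2a1: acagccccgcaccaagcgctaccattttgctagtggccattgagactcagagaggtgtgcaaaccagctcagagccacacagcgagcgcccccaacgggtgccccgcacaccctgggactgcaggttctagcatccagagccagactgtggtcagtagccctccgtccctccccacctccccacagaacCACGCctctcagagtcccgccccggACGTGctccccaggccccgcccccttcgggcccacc
Pfkfb3: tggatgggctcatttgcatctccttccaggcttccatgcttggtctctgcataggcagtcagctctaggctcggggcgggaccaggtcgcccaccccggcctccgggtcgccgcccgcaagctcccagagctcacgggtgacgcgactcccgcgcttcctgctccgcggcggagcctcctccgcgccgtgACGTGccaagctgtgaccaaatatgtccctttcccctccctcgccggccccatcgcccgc
Pgk1: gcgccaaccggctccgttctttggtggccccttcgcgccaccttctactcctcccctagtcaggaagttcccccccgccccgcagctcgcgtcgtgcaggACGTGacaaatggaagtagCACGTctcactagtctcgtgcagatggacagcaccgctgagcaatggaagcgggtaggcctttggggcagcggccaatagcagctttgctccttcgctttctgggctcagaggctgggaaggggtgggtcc
Ldha: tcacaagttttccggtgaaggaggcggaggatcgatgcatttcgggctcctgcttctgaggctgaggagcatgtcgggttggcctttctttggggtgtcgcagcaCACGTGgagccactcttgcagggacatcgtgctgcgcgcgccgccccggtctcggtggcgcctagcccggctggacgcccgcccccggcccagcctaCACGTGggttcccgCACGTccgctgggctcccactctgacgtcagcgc
Bnip3: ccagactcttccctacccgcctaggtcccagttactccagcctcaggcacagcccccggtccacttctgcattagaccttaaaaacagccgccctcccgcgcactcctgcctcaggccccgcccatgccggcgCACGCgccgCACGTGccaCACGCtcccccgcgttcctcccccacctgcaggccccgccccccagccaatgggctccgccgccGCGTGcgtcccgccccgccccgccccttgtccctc
The Slc2a1 window was chr4:119108495-119108744 on the plus strand, with 1 match of each kind. That of Pfkfb3 was chr2:11553930-11554179 on the minus strand, with 1 ACGTG. The Pgk1 window, chrX:106186850-106187099 on the plus strand, held ACGTG 2 times. Ldha, at chr7:46845554-46845803 on the plus strand, had 5 shown matches, and Bnip3, at chr7:138909507-138909756 on the minus strand, also had 5. These letters are a description of the windows and do not show that HIF was bound there.

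Most of the measured members were higher in chondrocytes than in the other cells of the knee. Of 34 members, 28 reached a mean of 10 CPM over the 10 sums of class and library and were tested. In chondrocytes against the mean of the 4 other classes, 17 of the 28 rose and 1 fell, where 9.82% of 8535 genes rose and 13.8% fell (limma with the library as a block, adjusted p under 0.05). The median difference of the 28 was 1.10 on the log2 scale, against -0.15 over all genes, and 25 of the 28 had the same sign in both libraries. By role, those that rose were 1 of 3 tested carriers, 5 of 7 upper and 6 of 6 lower glycolysis genes, 2 of 3 genes of pyruvate fate, 1 of 3 of oxygen sensing and 2 of 6 hypoxia targets. Chondrocytes had the highest level of the 5 classes in both libraries for 15 members (53.6%), against 10.3% of all genes. For 9 members (32.1%) the lower of the 2 chondrocyte values still exceeded all 8 values of the other classes, against 6.68% of all genes. These were Slc2a1, Hk1, Pfkfb3, Gapdh, Pgk1, Pgam1, Eno1, Pkm and Hif1a. Without the block for library 10 members rose and 0 fell, and among the calls given here Tpi1 was lost under 5 and P4ha1 under 4 of 15 other settings.

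**Figure D1:**
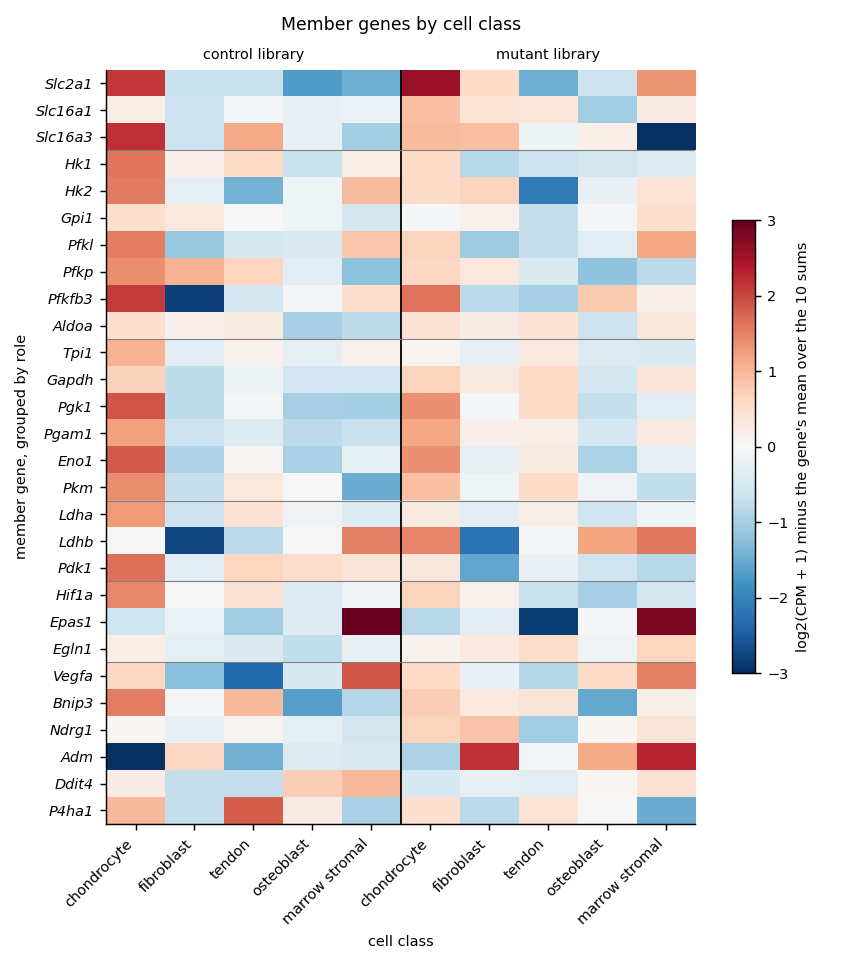
Levels of the 28 tested members in 5 cell classes of each library, as log2(CPM + 1) minus the gene's mean over the 10 sums, with colours ending at 3 either way. Both chondrocyte columns are red across most genes of glycolysis, Epas1 is highest in marrow stromal cells, and Adm is lowest in the chondrocytes of each library.

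The glucose carrier Slc2a1, also known as Glut1, was among the members that set chondrocytes apart most. It was read at 59.0 CPM in control and 83.3 CPM in mutant chondrocytes, against 3.26 to 7.69 CPM in the other control classes and 4.04 to 33.99 CPM in the mutant ones. The classes did not overlap, and the difference was 2.94 ± 0.55 (log2, SE of the fit, 2 libraries), or 7.70-fold, with an adjusted p of 0.00417. Some values of the other classes rested on few UMIs, with 3 in control osteoblasts and 2 in control marrow stromal cells. Mutant tendon cells held 1 UMI, where the floor of 3 UMIs stood at 12.4 CPM. Over 15 other settings the Slc2a1 difference ran from 2.06 to 4.04, with an adjusted p of at most 0.0487. The related carrier Slc2a3 was too low to test and had its highest level in marrow stromal cells, with 38.8 and 13.7 CPM in the control and mutant libraries. Of the UMIs of this pair, Slc2a1 took 94.3% in control and 96.6% in mutant chondrocytes, and 18.8% and 10.0% in control osteoblasts and marrow stromal cells. In mutant osteoblasts and marrow stromal cells its share was 54.5% and 71.4%, from 6 and 20 UMIs of Slc2a1. Slc16a1 and Slc16a3 carry lactate and other monocarboxylates across the membrane, and Slc16a3 is the form known for lactate export. Slc16a3 had a difference of 1.97 ± 0.65 that missed the threshold, with an adjusted p of 0.0527. In chondrocytes it was read at 45.9 and 18.9 CPM in the control and mutant libraries, next to 21.5 CPM in control tendon and 18.2 CPM in mutant fibroblasts. Mutant marrow stromal cells held 0 UMIs of Slc16a3, which allows up to 5.15 CPM, and it reached the mean of 10 CPM needed for a test only through its level in chondrocytes. Slc16a1 differed by 0.66 ± 0.33 (adjusted p = 0.174).

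In upper glycolysis, the steps that commit glucose to the pathway rose in chondrocytes, while the isomerase Gpi1 and the aldolase Aldoa did not pass. Hexokinases trap glucose in the cell. Hk1 was read at 159 CPM in control and 78.7 CPM in mutant chondrocytes, against 32.5 to 76.2 CPM and 28.8 to 39.2 CPM in the other classes of the same libraries. Its difference was 1.37 ± 0.25, or 2.59-fold, with an adjusted p of 0.00402. Hk2, the form known to follow hypoxia, was at 535 and 273 CPM in chondrocytes, with 67.6 to 355 CPM in the other control classes and 41.2 to 290.4 CPM in the mutant ones. Chondrocytes were thus highest for Hk2 in the control library only, since mutant fibroblasts lay above mutant chondrocytes. The Hk2 difference of 1.33 ± 0.30 (2.51-fold) passed with an adjusted p of 0.0104. Among single classes it passed against tendon, with 2.83 and an adjusted p of 0.00115, but not against fibroblasts (0.86, adjusted p = 0.133), osteoblasts (1.24, adjusted p = 0.0534) or marrow stromal cells (0.38, adjusted p = 0.485). Hk2 made up 77.0% of the UMIs of the hexokinase pair in control and 77.6% in mutant chondrocytes, against 47.0 and 55.6% in tendon and 86.1% in marrow stromal cells of both libraries.

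Phosphofructokinase catalyses the main regulated step, and Pfkfb3 makes the sugar phosphate that activates it. Pfkfb3 reached 218 CPM in control and 157 CPM in mutant chondrocytes. The other classes ranged from 6.36 CPM in control fibroblasts to 86.9 CPM in mutant osteoblasts, so no value overlapped. The difference of 2.34 ± 0.43 was 5.05-fold (adjusted p = 0.00382) and was widest against fibroblasts, at 3.66 (adjusted p = 0.0013), but did not pass against osteoblasts (1.51, adjusted p = 0.0957) or marrow stromal cells (1.55, adjusted p = 0.0557). The liver form Pfkl was at 62.0 and 33.8 CPM in chondrocytes, against 8.97 to 37.9 CPM in the other control classes and 9.37 to 47.9 CPM in the mutant ones. Marrow stromal cells were the class next to chondrocytes for Pfkl and lay above them in the mutant library, and the overall difference was 1.38 ± 0.29 (2.60-fold, adjusted p = 0.00727). The platelet form Pfkp had 120.0 CPM in control and 69.6 CPM in mutant chondrocytes, and 18.5 to 93.3 CPM and 18.9 to 56.6 CPM elsewhere. It was 2.40-fold higher in chondrocytes (1.26 ± 0.28, adjusted p = 0.00972), with fibroblasts as the nearest class in both libraries. The muscle form Pfkm averaged 9.29 CPM and was not tested. Its chondrocyte levels were 18.7 and 8.76 CPM in the control and mutant libraries, against 9.33 to 13.2 CPM in the other control classes, 9.42 and 9.52 CPM in mutant fibroblasts and osteoblasts, and 0 UMIs in mutant tendon and marrow stromal cells, which allows up to 12.4 and 5.15 CPM. Gpi1 differed by 0.28 ± 0.29 (adjusted p = 0.52) and Aldoa by 0.58 ± 0.22 (adjusted p = 0.0873). Aldoc was below 6 CPM throughout, with 5.71 and 4.89 CPM in chondrocytes as its 2 highest values.

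All 6 genes of lower glycolysis rose in chondrocytes against the mean of the 4 other classes. In the limma contrasts with single classes, Pgk1, Eno1 and Pgam1 passed against each. Pkm did not pass against tendon (adjusted p = 0.0971), nor Gapdh against tendon (adjusted p = 0.278) or marrow stromal cells (adjusted p = 0.0604). Tpi1 passed against fibroblasts only (adjusted p = 0.0489). Phosphoglycerate kinase Pgk1, which makes the first ATP of these steps, was at 289 CPM in control and 204 CPM in mutant chondrocytes. Other classes held 38.3 to 76.5 CPM of Pgk1 in the control and 47.1 to 119 CPM in the mutant library. The 4.09-fold difference (2.03 ± 0.24) had an adjusted p of 0.000423. Enolase Eno1 reached 378 and 275 CPM in chondrocytes, against 53.0 to 108 CPM and 54.0 to 127 CPM in the others, and differed by 2.01 ± 0.20 (4.04-fold, adjusted p = 0.000184). Its copy Eno1b was read at 17.7 and 6.51 CPM in chondrocytes and at no more than 3.38 CPM in the gates. The mutase Pgam1 had 229 and 219 CPM in chondrocytes, 56.6 to 73.0 CPM in the other control classes and 67.7 to 118 CPM in the mutant ones, a difference of 1.49 ± 0.21 (2.80-fold, adjusted p = 0.000931). For these genes tendon cells were the nearest class in the control library, and in the mutant library too for Pgk1 and Eno1. Pyruvate kinase Pkm was read at 566 CPM in control and 401 CPM in mutant chondrocytes. Tendon cells came next with 263 and 313 CPM, the lowest values were 75.6 and 127 CPM in marrow stromal cells, and the difference was 1.45 ± 0.22 (2.73-fold, adjusted p = 0.00151). Gapdh, often used as a reference gene, was 1.80-fold higher in chondrocytes, with 538 and 529.8 CPM against at most 299.7 CPM in other control and 503 CPM in other mutant cells (adjusted p = 0.0198). Tpi1, the isomerase of the triose phosphates, was 1.63-fold higher with an adjusted p of 0.0377, but mutant tendon cells, at 223 CPM, lay above mutant chondrocytes, at 193 CPM. Many of these genes have processed copies in the genome, and how reads were divided among them is uncertain.

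At the fate of pyruvate, lactate dehydrogenase A and the kinase that keeps pyruvate from being oxidised were both higher in chondrocytes. Ldha, which turns pyruvate into lactate, was at 625 CPM in control and 312 CPM in mutant chondrocytes. It ranged from 168 to 347 CPM in the other control classes and from 171 to 292 CPM in the mutant ones, and was 1.95-fold higher in chondrocytes (0.97 ± 0.23, adjusted p = 0.0138). Pdk1, which inhibits pyruvate dehydrogenase, had 61.9 and 24.4 CPM in chondrocytes against 14.8 to 30.5 CPM and 5.78 to 16.4 CPM elsewhere. Chondrocytes were highest in each library, and the difference was 1.24 ± 0.25 (2.37-fold, adjusted p = 0.00662). Ldhb, the form of the enzyme that favours lactate use, did not pass (0.93 ± 0.32, adjusted p = 0.0619) but did against fibroblasts (3.23, adjusted p = 0.000534). The highest Ldhb levels were in marrow stromal cells, with 50.2 and 53.1 CPM, and mutant chondrocytes were next with 48.8 CPM.

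The oxygen-regulated subunits were split between cell types. Hif1a was at 733 CPM in control and 425 CPM in mutant chondrocytes, against 201 to 369 CPM and 134 to 291 CPM in the other classes. No other class reached the chondrocytes of either library, and the 2.50-fold difference (1.32 ± 0.21) had an adjusted p of 0.00185. Its relative Epas1, or Hif2a, was highest in marrow stromal cells, with 401 and 259 CPM in the control and mutant libraries. Chondrocytes held 23.5 and 19.6 CPM of Epas1, the other 3 classes 4.13 to 35.3 CPM, and the chondrocyte difference from marrow stromal cells was -3.84 (adjusted p = 0.000229). Against the mean of all 4 classes Epas1 missed the threshold (-0.89 ± 0.35, adjusted p = 0.0908). Hif1a thus took 96.9% of the UMIs of the pair in control and 95.6% in mutant chondrocytes, but 38.3 and 41.9% in marrow stromal cells. The prolyl hydroxylase Egln1 was similar in level across classes, from 26.8 to 71.9 CPM, and its difference of 0.18 ± 0.23 did not pass (adjusted p = 0.625). Egln3, itself a HIF target, was at most 5.65 CPM and was not tested.

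Of the remaining hypoxia targets, 2 of 6 tested members were higher, 1 was lower and 3 did not pass, where 9.82% of all genes rose and 13.8% fell. The median difference of these 6 was 0.60, against -0.15 over all genes. Bnip3, which directs the removal of mitochondria, was at 120.3 CPM in control and 68.7 CPM in mutant chondrocytes. Osteoblasts were lowest with 12.4 and 13.5 CPM, tendon cells were nearest with 81.8 and 53.6 CPM, and the difference of 1.41 ± 0.32 (2.67-fold) had an adjusted p of 0.011. P4ha1, which hydroxylates prolines of collagen, was 1.90-fold higher in chondrocytes (0.93 ± 0.22, adjusted p = 0.0146). Its chondrocyte levels of 429.9 and 311 CPM were above those of marrow stromal cells, at 111 and 76.6 CPM, but below the 765 CPM of control tendon cells, and against tendon P4ha1 did not pass (-0.36 ± 0.28, adjusted p = 0.399). Vegfa, the growth factor that draws in vessels, was highest in marrow stromal cells, with 411 and 321 CPM, followed by chondrocytes with 173 and 171 CPM. It passed against fibroblasts (1.34, adjusted p = 0.0351) and tendon (adjusted p = 0.00512) but not against the mean of the 4 classes (0.76 ± 0.31, adjusted p = 0.108). Ndrg1 (adjusted p = 0.394) and the mTOR inhibitor gene Ddit4 (adjusted p = 0.767) did not pass either.

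Adm, which encodes the vasodilator peptide adrenomedullin, was the member that fell. It was at 1.81 CPM in control chondrocytes, from 6 UMIs, and at 10.7 CPM in mutant ones. The other classes held 7.09 to 32.9 CPM in the control and 20.6 to 106 CPM in the mutant library. Within each library chondrocytes were lowest, but mutant chondrocytes overlapped control tendon cells, and the difference was -2.43 ± 0.30 (0.185-fold, adjusted p = 0.000548). Its promoter window held GCGTG 2 times and no ACGTG. Ankrd37 averaged 5.96 CPM and Car9 0.981 CPM, and neither was tested. Car9 UMIs came from control tendon cells and from chondrocytes, with 8.55 CPM in the former and 0.614 and 0.649 CPM in the latter.

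Against single classes, members rose in 16 and fell in 1 of 28 in the comparison with fibroblasts, where 7.87% of all genes rose and 13.8% fell. Against tendon cells 10 rose and 0 fell, with 1 lower at an unadjusted p under 0.05, beside 8.74% and 9.55% of all genes called by limma, and those 10 included Slc2a1, Pfkfb3 and Pgk1 but not Pkm or Ldha. Against osteoblasts the counts were 13 and 1, beside 8.56% and 6.02%. Against marrow stromal cells they were 13 and 2, beside 9.3% and 19.5%, and the 2 that fell were Epas1 and Adm. Tendon cells were therefore the class from which fewest members differed by count, though the difference between those counts was not tested.

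**Figure D2:**
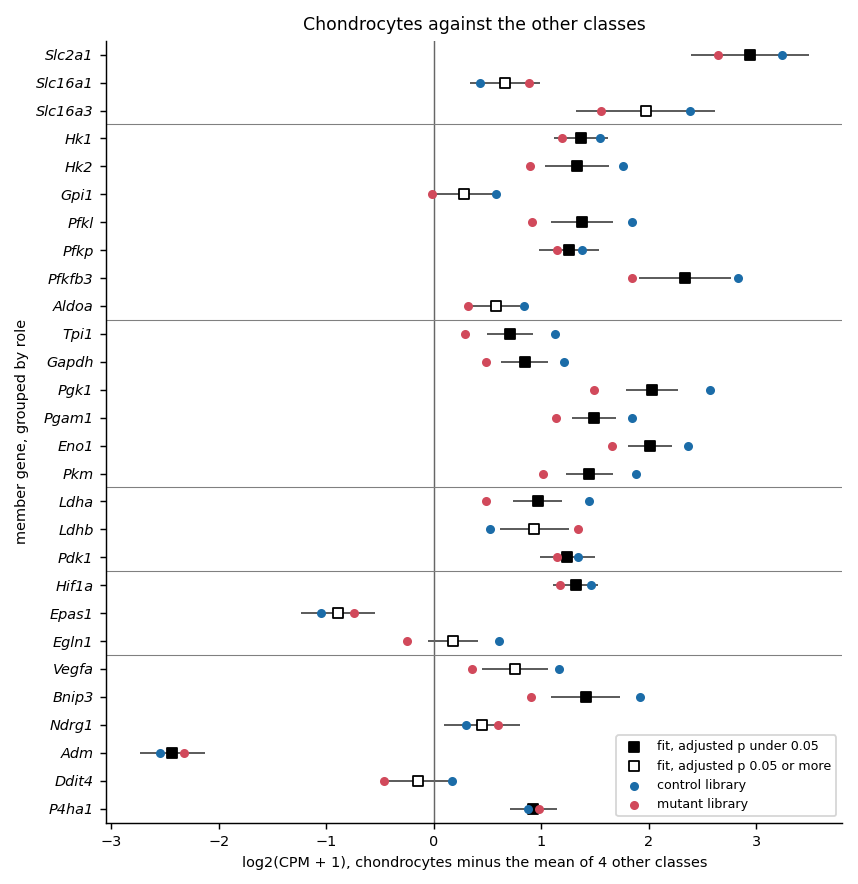
Difference of each tested member between chondrocytes and the mean of the 4 other classes on the log2(CPM + 1) scale. Squares with bars are the fit and its SE, filled where the adjusted p was under 0.05, and dots are the difference within the control and the mutant library. Slc2a1 lies farthest to the right at 2.94 and Adm farthest to the left at -2.43, and for most genes of glycolysis the control dot lies to the right of the mutant dot.

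Genes of both pathways beyond the 34 members were read in the same fit, against the mean of the 4 other classes. Over all genes of that fit 9.82% rose and 13.8% fell, with a median difference of -0.15. Of 31 other genes of glucose metabolism 13 could be tested, 0 rose and 2 fell in limma's test, and their median difference was -0.05. At an unadjusted p under 0.05 they numbered 0 higher and 3 lower. The genes that fell were the pyruvate carrier subunit Mpc2 (-0.73, adjusted p = 0.0113) and the pyruvate dehydrogenase kinase Pdk4 (-2.46 ± 0.49, adjusted p = 0.00593). Among 36 other hypoxia genes, 31 were tested, 9 rose (29.0%) and 6 fell, with a median of 0.12. Among those well above the other classes were Car12, a carbonic anhydrase, at 3.87 ± 0.43, and Plod2, a collagen lysyl hydroxylase, at 1.89 ± 0.33. Lowest were Lox, which crosslinks collagen, at -2.99 ± 0.27, Igfbp3, which binds insulin-like growth factors, at -2.704 ± 0.301, and Insig2 at -1.36 ± 0.35. The adjusted p of these 5 genes ranged from 0.00011 to 0.019. Of 19 genes of the dissociation stress response, Fos, Fosb and Btg2 rose and Hspa1a and Hspa1b fell, and the summed level of the list was 15879 and 14385 CPM in chondrocytes and 9588 to 18141 CPM elsewhere.

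In single cells, too, chondrocytes had the highest core glycolysis, with wide spread within each class. Core glycolysis was read as the sum of 16 enzymes from the hexokinases to lactate dehydrogenase. Its median per cell was 3295 CPM in control chondrocytes, with a 10th to 90th percentile of 1307 to 6966 CPM. In the other control classes the medians ran from 1191 CPM in osteoblasts to 1437 CPM in tendon cells. Mutant chondrocytes had a median of 2315 CPM (911 to 4548 CPM), and the other mutant classes 1064 to 1698 CPM. Over summed cells, chondrocytes exceeded the class next to them 2.30-fold in the control and 1.43-fold in the mutant library. Cells of these classes differed in depth, so shares of cells above 0 were compared after thinning each cell to 2000 UMIs. This left out 34 control chondrocytes, 32 mutant chondrocytes, 36 control fibroblasts and 108 of 1795 control erythroid-like cells, which were shallower. Hif1a was then read in 70.4% of control chondrocytes, 47.7% of mutant chondrocytes and 34.1% of control fibroblasts. Erythroid-like cells, which should hold little of it, had 2.3%. Slc2a1 was read in 10.7, 15.0 and 2.62% of the same 3 classes and in 0.1% of erythroid-like cells. Without thinning, control chondrocytes had 89.2% for Hif1a and 25.5% for Slc2a1, at a median of 5876 UMIs, and erythroid-like cells 11.9% and 0.5%, at a median of 6167 UMIs. For Gapdh the share was 55.2% in control chondrocytes, 55.5% in erythroid-like cells, which held 426 CPM of it, and 32.0% in control fibroblasts.

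**Figure D3:**
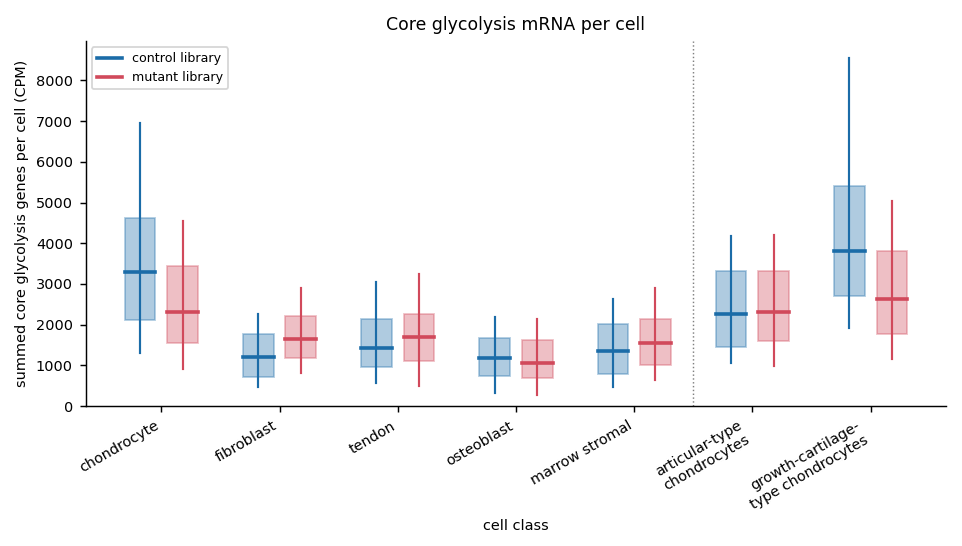
Summed level of the 16 core glycolysis enzymes per cell in CPM, by cell class and library. Lines across are medians, boxes span the quartiles and whiskers the 10th to 90th percentiles. Chondrocytes have the highest median of the 5 classes in each library, 3295 and 2315 CPM in the control and mutant libraries, and growth-cartilage-type cells lie above articular-type cells.

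Within chondrocytes, core glycolysis was higher in cells with growth cartilage markers than in cells with articular markers. Of the marked cells, 113 control and 92 mutant cells were articular-type, led by lubricin (Prg4) and its companions, and 305 and 156 were growth-cartilage-type. The sum of the 16 enzymes was 2502 CPM in articular-type and 4743 CPM in growth-cartilage-type cells of the control library, a 1.90-fold difference. In the mutant library the values were 2670 and 3147 CPM, a 1.18-fold difference. Of 28 members at a mean of 10 CPM or more, 17 (60.7%) were higher in growth-cartilage-type cells of both libraries, where 29% of 7651 genes were. The median member difference was 0.49 and 0.26 in the control and mutant libraries, against -0.07 and -0.13 for all genes. With 2 libraries these are descriptions, and growth-cartilage-type cells were also deeper, with a median of 6953 against 4557 UMIs in the control.

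Pdk1 differed alike in both libraries between these kinds of chondrocytes, at 27.9 against 72.4 CPM in the control and 11.8 against 31.2 CPM in the mutant library. It was the only measured member at least 2-fold higher in growth-cartilage-type cells of both libraries, 1 of 28 (3.57%) beside 3.10% of 7651 genes. At least 2-fold the other way in both were 0 members, beside 6.04% of genes. Ldha differed more in the control, with 257 CPM in articular-type and 768 CPM in growth-cartilage-type cells, than in the mutant, with 240.0 and 372 CPM. For Eno1, Pgk1, Pgam1 and Tpi1 the log2 difference was 1.30, 1.25, 1.17 and 1.01 in the control and 0.62, 0.48, 0.66 and 0.26 in the mutant. Lactate exporter Slc16a3 followed the same pattern with 1.81 and 0.78. In the other direction, Pfkp was lower in growth-cartilage-type cells by log2 values of -0.71 and -0.70, Ldhb by -0.76 and -0.80, and Ndrg1 by -0.59 and -0.41. Hif1a differed little, at -0.14 and -0.26. Epas1 was 67.3 CPM in articular-type and 9.93 CPM in growth-cartilage-type cells of the control, but 19.5 and 15.4 CPM in the mutant.

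**Figure D4:**
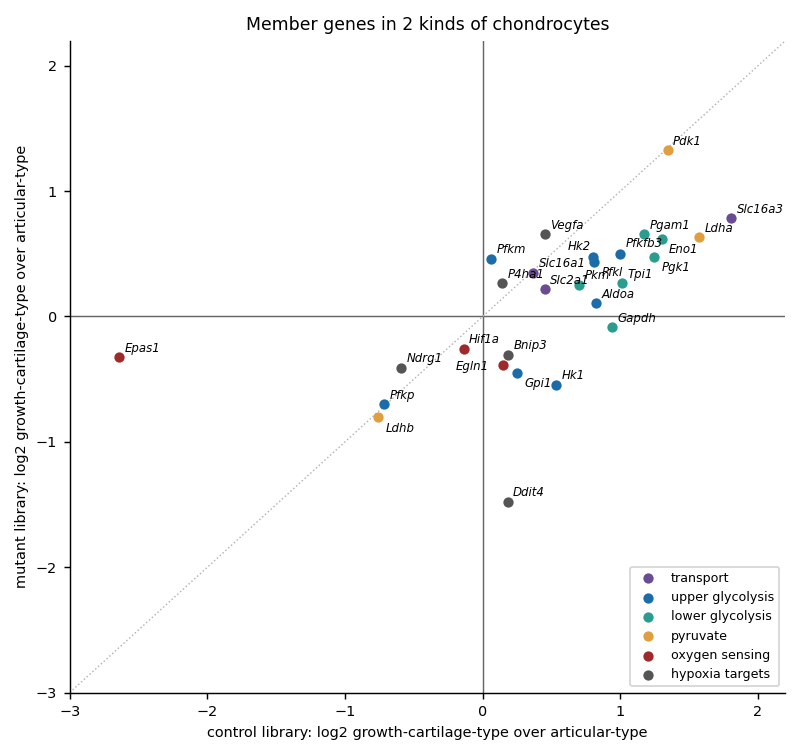
Each measured member by its log2 difference between growth-cartilage-type and articular-type chondrocytes, in the control library on the horizontal and in the mutant library on the vertical axis, coloured by role. Points right of and above 0 were higher in growth-cartilage-type cells of both libraries, Pdk1 lies on the diagonal, and Ldha and Slc16a3 lie below it.

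Between genotypes, most members were lower in mutant chondrocytes than in control ones, though few passed 2-fold. Of 29 members at 10 CPM or more in either library, 24 were lower and 5 higher, with a median log2 ratio of -0.50 against a shift of -0.16 over 6911 genes, and 19 lay below that shift and 10 above it. Those past 2-fold were 2 higher and 4 lower, where 4.57% and 6.63% of all genes were. Over 14 other settings these counts ran from 1 to 2 higher and from 1 to 7 lower. With 1 library per genotype, the genotype and the pool cannot be told apart, and the intervals given cover counting error only. Core glycolysis was 4150 CPM in control and 2845 CPM in mutant chondrocytes, a log2 ratio of -0.54.

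Pdk1 had the lowest ratio among the abundant members, at 61.9 and 24.4 CPM in the control and mutant libraries, a log2 ratio of -1.31 with a 95% counting interval of -1.74 to -0.95 from 190 and 75 UMIs. Slc16a3 followed with 45.9 and 18.9 CPM, or -1.24 (-1.75 to -0.83). The other members past 2-fold were Hk1, with 159 and 78.7 CPM, or -1.01 (-1.25 to -0.79), and Pfkm with 18.7 and 8.76 CPM, or -1.01 (-1.79 to -0.39). Just inside the limit lay Ldha at -0.998 (-1.11 to -0.89), Hk2 at -0.97 and Tpi1 at -0.95. Hif1a was 733 and 425 CPM in the control and mutant libraries, a ratio of -0.78 (-0.88 to -0.69). The intervals of Gapdh at -0.02 (-0.12 to 0.08), Pgam1 at -0.06 and Aldoa at -0.08 included 0. Those of Pgk1 at -0.50 (-0.65 to -0.35), Pkm at -0.50 (-0.60 to -0.39), Eno1 at -0.46 (-0.59 to -0.33), Pfkp at -0.78, Pfkl at -0.85, Gpi1 at -0.55 and Pfkfb3 at -0.47 lay below 0. Vegfa was also close to 0, at -0.02.

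In the opposite direction, Ldhb was 17.2 CPM in control and 48.8 CPM in mutant chondrocytes, a log2 ratio of 1.45 (1.03 to 1.97) from 53 and 149 UMIs. Its share of lactate dehydrogenase UMIs was 2.7% in the control (2.0 to 3.5%) and 13.5% in the mutant (11.5 to 15.6%). Among the lactate carriers Slc16a3 took 59.0% of the pair in control (52.5 to 65.3%) and 26.1% in mutant chondrocytes (20.5 to 32.4%), with Slc16a1 at 32.1 and 53.6 CPM. The genes of each pair had ratios of opposite sign. Adm went from 6 to 33 UMIs, a ratio of 2.05 (1.19 to 4.01). Slc2a1 at 0.49 (0.22 to 0.78), Slc16a1 at 0.72 (0.38 to 1.12) and Ndrg1 at 0.59 (0.36 to 0.84) were the other members whose interval lay above 0. Osteoblast markers were higher in the marked cells of the mutant library, as given above, and osteoblasts held Ldhb at 17.0 CPM (control) and 39.6 CPM (mutant). Without the marked cells that were neither articular-type nor growth-cartilage-type, whose osteoblast marker sums were highest, the Ldhb ratio was 1.49 and the Adm ratio 1.51. The cells kept still held higher osteoblast marker sums in the mutant library, with 1172 and 1743 CPM in articular-type cells. In growth-cartilage-type cells these sums were 988 and 2114 CPM. Without marked cells that held markers of another class, the Ldhb ratio was 1.41 and the Adm ratio 1.16. Adm was below 10 CPM in each library under both settings.

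The genotype ratio of core glycolysis was -0.59 in growth-cartilage-type cells and 0.09 in articular-type cells on the log2 scale. The median over measured members was -0.52 in the former, against -0.19 over 6551 genes, and -0.12 in the latter, against -0.12 over 6847 genes. The difference between these ratios was not tested, and marked cells with neither set of markers had a ratio of -0.58 beside osteoblast marker sums of 4940 and 19317 CPM in the control and mutant libraries. The subsets also differed in make-up between the control and mutant libraries. Growth-cartilage-type cells held 130 and 811 CPM of Col10a1 and 602 and 95.4 CPM of Prg4. Articular-type cells held 462 and 1039 CPM of the growth cartilage marker Ucma. The part of make-up in the ratios was not tested.

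The other classes differed in their median ratios, and the osteoblast median changed sign between settings. Their core glycolysis ratios were 0.46 in fibroblasts, 0.14 in tendon cells, -0.05 in osteoblasts and 0.27 in marrow stromal cells. The summed markers of each gate also differed between the control and mutant libraries. They were 21711 and 60400 CPM in osteoblasts, 13631 and 8229 CPM in tendon cells, 5355 and 6093 CPM in fibroblasts, and 22395 and 17218 CPM in marrow stromal cells. The part of cell make-up in the ratios of these classes was not tested. In fibroblasts 20 of 26 measured members were higher in the mutant library, with a median of 0.57 against a shift of -0.12. Past 2-fold there were 8 higher and 1 lower (4.81% and 8.62% of all genes), and Pfkfb3 was at 6.36 and 28.5 CPM, a log2 ratio of 2.004 (1.18 to 3.38). Of these 9, Pfkfb3, Slc2a1 and Slc16a3 reached 10 CPM only in the mutant library and Pdk1 only in the control, and over 14 other settings the count higher ran from 3 to 9. Fibroblast Gapdh was at 195 and 404 CPM, a ratio of 1.05, and Hk2 was at 151 and 290.4 CPM, a ratio of 0.94. Globin values were present in 68.3% of control and 1.1% of mutant fibroblasts, and the median without such cells was 0.38. In tendon cells 13 measured members were higher and 15 lower in the mutant library. Past 2-fold there were 2 higher and 8 lower, beside 12.2% and 18.3% of all genes. The tendon median was -0.22 against a shift of -0.05, from 41 mutant cells. Over 14 other settings that median ran from -0.87, without the 3 cells with most UMIs of each gene, to -0.14. With Pfkm, which held 14 UMIs in control and 0 in mutant tendon cells, set at its bound, that median was -0.14. In osteoblasts 3 were higher and 2 lower past 2-fold, beside 5.49% and 15.9%, with a median of 0.09 against -0.19. Over the other settings the osteoblast median ran from -0.04 to 0.35. In marrow stromal cells 6 were higher and 3 lower past 2-fold, beside 9.13% and 16.1%, with a median of 0.29 against -0.10. Over the other settings the marrow stromal median ran from 0.04 to 0.44. There Pfkm held 6 and 0 UMIs, at least 2.37-fold lower against a floor of 3 UMIs in the mutant class, and erythroid-like control cells held 51.2 CPM of it.

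Some members kept a direction in more than 1 class. Pdk1 was lower in the mutant library in 5 of 5 classes, with -1.22 in fibroblasts, -0.86 in tendon, -1.12 in osteoblasts and -1.23 in marrow stromal cells, although only the chondrocyte and fibroblast intervals excluded 0. Erythroid-like cells of the control library held 57.7 CPM of Pdk1. Without cells that carried a globin value its ratio was -0.73 in fibroblasts, -1.09 in tendon, -1.22 in osteoblasts and -0.42 in marrow stromal cells, while no marked chondrocyte carried one. Adm was past 2-fold higher in all 5, with 1.58 (1.14 to 2.08) in fibroblasts, 1.42 in tendon, 1.56 in osteoblasts and 2.74 in marrow stromal cells. In chondrocytes and tendon it reached 10 CPM only in the mutant library, and with a pseudocount of 10 CPM its ratios there were 0.81 and 0.84. Without globin-carrying cells Adm stayed past 2-fold in the 4 gated classes, from 1.39 to 3.19. The tendon value rested on 7 and 5 UMIs with an interval of -0.38 to 3.50, and 3 cells held 40.4% of the Adm UMIs of mutant marrow stromal cells. Vegfa was past 2-fold higher in fibroblasts (46.8 and 95.7 CPM), tendon (21.6 and 61.5 CPM) and osteoblasts (80.7 and 166 CPM), but not in marrow stromal cells, at -0.35. Its tendon value rested on 22 and 15 UMIs, and 3 cells held 53.5% of the mutant ones. With a pseudocount of 10 CPM the Vegfa ratio was 0.90 in fibroblasts, 1.18 in tendon and 0.96 in osteoblasts. P4ha1 was lower in tendon, with 765 and 289 CPM (-1.40, -1.77 to -1.05), and in chondrocytes (-0.47, -0.59 to -0.34), while its intervals in the other 3 classes, at -0.08 to -0.53, included 0.

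**Figure D5:**
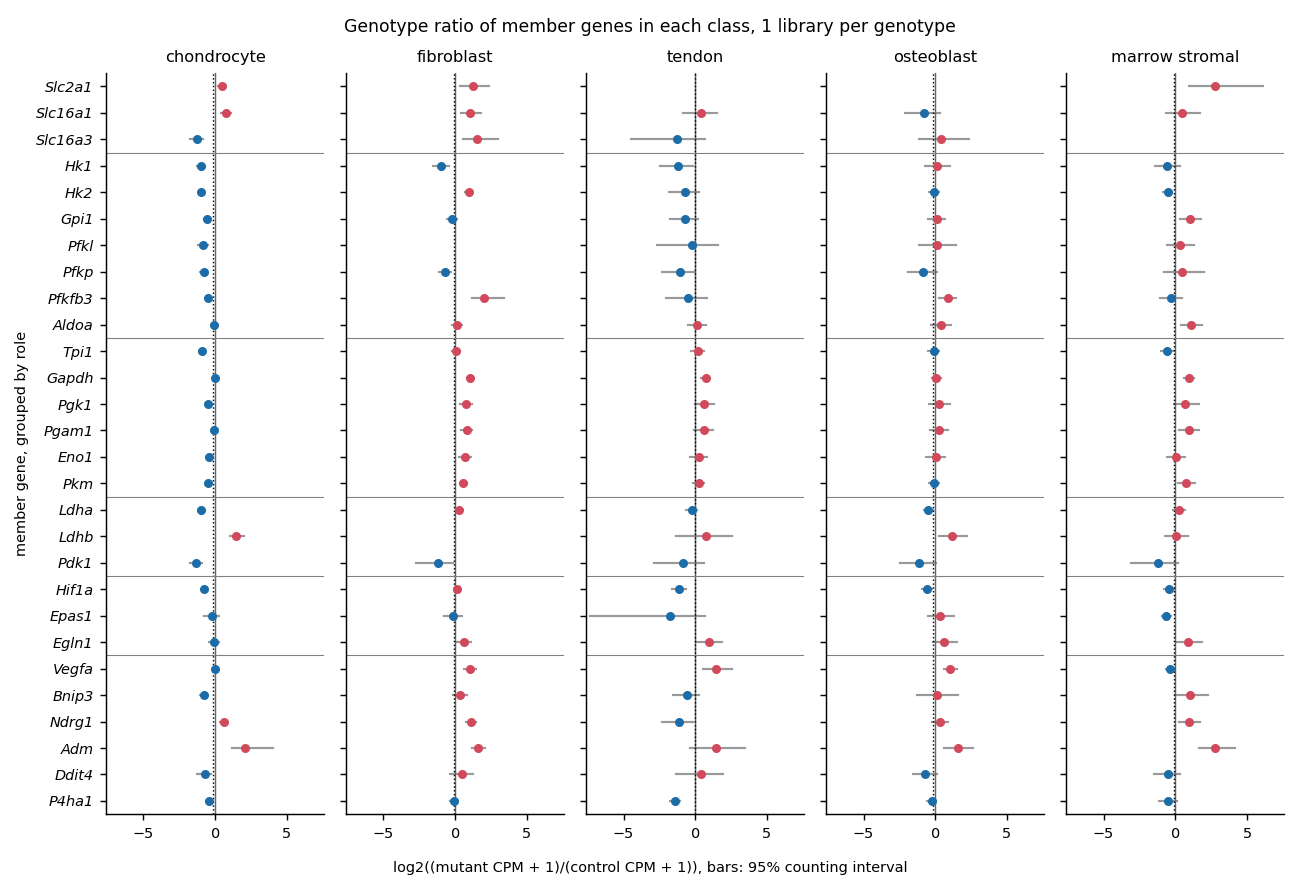
Log2 ratio of mutant over control for the 28 tested members in each class, with bars for the 95% counting interval and a dotted line at the median of all genes. Members below 10 CPM in both libraries or without a UMI in either are left out. Chondrocyte points lie mostly left of the dotted line, with Ldhb and Adm far to its right, while fibroblast points lie mostly to the right.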

How the data were processed

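Cells of 1 control and 1 mutant library were read. Per the labels and methods, the authors aligned reads to mm10 with STAR 2.7.3a in Partek Flow, removed duplicate UMIs, counted them on a Gencode annotation, and removed ambient RNA with SoupX. The submitters' processing notes also list R 4.0.3. Gene values were deposited as log2(CPM + 1) for each cell. Each cell's total was given by the authors as an estimated count, mitochondrial and ribosomal shares are deposited as a percent, and the number of expressed genes is a score per cell deposited by the authors. The methods name a limit of 5% mitochondrial counts that the tables do not keep.

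For each cell, the UMIs of a gene were taken as 2 to the power of its value, minus 1, times total/1000000, and 74.9% of control and 97.3% of mutant values above 0 lay within 0.1 of a whole number. The libraries held 23576416 and 7452649 UMIs. Because values are not whole counts, sums per class were tested on log2(CPM + 1) with limma 3.58.1 (R 4.3.3), with a variance trend, the library as a block and 4 residual degrees of freedom, over 8535 genes at a mean of 10 CPM or more with Benjamini-Hochberg adjustment. The block holds the pool and the genotype, and the replicates are the 2 libraries. The p-values measure only how far differences between classes disagree between these libraries, with the variance of each gene drawn toward that of all genes. Effects of genotype or pool that vary by class are part of that disagreement. Articular-type and growth-cartilage-type cells had at least 2 markers of their kind and more than of the other. Genotype ratios used a pseudocount of 1 CPM, and 95% exact binomial intervals and floors of 3 UMIs cover counting error only. Read strand is not given in the sources used here. Shares used Python 3.11.15 and SciPy 1.17.1.

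The fit was tested on simulated data for chondrocytes against the mean of 4 classes over 8457 genes and recovered 78% of 2-fold and 100% of 4-fold changes. The changed genes were drawn from those at a mean of 30 CPM or more. Every gene had the same simulated spread, and no class differed between libraries in its own way. Recovery for lower members or for less even libraries was therefore not tested. A doublet caller marked 74 control and 2 mutant cells (1.51% and 0.149%). For the mutant library this is too few to count as a working call, so doublets were kept and their removal was an alternative. The members and the gene lists were chosen with earlier results of these data known. Full values were given for members at least 2-fold apart in chondrocytes with an adjusted p under 0.05, for those past 2-fold between genotypes in chondrocytes at 30 CPM or more or in at least 3 classes, and for Stat3, and of the other lists for the 3 highest and 3 lowest genes past the test, of which 1 is not reported here. Other members named were added to account for all 34. Alternatives covered gates of 2 and 4 markers, cell filters, weighting, scaling, pseudocounts of 0.1 and 10 CPM, the low-value filter, the cells with most UMIs and the block.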

Additional observations from a re-analysis of the deposited data

Results flagged for a closer look

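For 2 members, the genotype ratio went past 2-fold in opposite directions in fibroblasts and in tendon cells, and the difference between the classes was not tested. The lactate exporter Slc16a3 had a log2 ratio of mutant over control of 1.54 in fibroblasts, with a counting interval of 0.57 to 3.01 from 9 control and 25 mutant UMIs. In tendon cells its ratio was -1.29 (-4.48 to 0.67), from 22 control and 2 mutant UMIs. In mutant fibroblasts 3 cells held 48.1% of the Slc16a3 UMIs. Without globin-carrying cells its ratio was 0.70 in fibroblasts and -1.47 in tendon cells. With a pseudocount of 10 CPM it was 0.85 and -0.79, so neither was past 2-fold. The hypoxia target Ndrg1 had a ratio of 1.08 (0.73 to 1.44) in fibroblasts, from 107 and 191 UMIs, and of -1.13 (-2.31 to -0.14) in tendon cells, from 85 and 9 UMIs. Over 14 other settings the Ndrg1 ratio ran from 0.99 to 1.46 in fibroblasts and from -1.48 to -0.73 in tendon cells. The mutant tendon class held 41 cells.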

How the results depend on the processing

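Of 15 alternative settings, 14 kept the count of members that rose in chondrocytes against the mean of the 4 classes within 1.5 times of 17, and the fit with no replicate block gave 10 that rose and 0 that fell. The labels give no replicate numbers, so the block is the library, and no replicate could be left out because each genotype had 1 library. The count that fell, 1, was 2 with cells of at most 5% mitochondrial counts, without marked cells that held markers of another class, with a pseudocount of 10 CPM, and without the osteoblast-rich marked cells, a setting chosen after seeing the data. The median difference stayed between 0.921 and 1.503. Members 2-fold or more higher in mutant chondrocytes, 2, were 1 under these same 4 settings and without the 3 cells with most UMIs, because Adm fell to 0.81 with a pseudocount of 10 CPM and, at ratios of 1.16 to 2.16, below 10 CPM in the other 4. Members 2-fold or more lower, 4, were 1 with all Sox9 and Col2a1 positive cells, 2 with median-of-ratios scaling, 1 with a pseudocount of 10 CPM and 7 without the 3 top cells. No member past the class test or past 2-fold between genotypes changed sign, but 38 of 142 genotype ratios, all smaller than 2-fold, did under at least 1 setting, among them Ldhb in tendon (-3.33 to 0.83) and Ddit4 in osteoblasts (-1.75 to 0.26). Median-of-ratios scaling moved the shift over all genes in chondrocytes from -0.16 to 0.01 and the median genotype ratio of members from -0.50 to -0.30. Slc16a3 passed the class test under 7 settings and Epas1 under 4. Small sums, above all that of mutant tendon cells, limit the ratios of members with few UMIs.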
